A study of Mus musculus with 24 samples.

Results

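Gene expression in embryonic lungs labelled as centriole-disrupted (Cenpj mutant) was compared directly with that in lungs labelled as cilia-disrupted (Ift88 mutant). The comparison used 8 of the 24 RNA sequencing libraries of the study, all lung libraries labelled as Cenpj mutant (4) or Ift88 mutant (4), and every gene in the table. In the study, lung and small intestine were dissected from mouse embryos of 3 genotypes at E11.5, with 4 libraries for each organ and genotype. Cenpj mutants were ShhCre Cenpj-/lox and Ift88 mutants ShhCre Ift88-/lox. Control embryos were ShhCre Cenpj+/lox, and their 4 lung libraries serve below as a reference for both mutants. All 3 genotypes carried ShhCre, which drives Cre recombinase from the Shh locus and so mainly in epithelial cells. By these genotypes the mutants kept 1 working copy of the targeted gene in cells without Cre, and the control epithelium, too, kept 1 working copy of Cenpj; no Ift88 allele is given for the controls. The submitters state that the stage came ahead of any visible phenotype. The labels do not say that the replicates were separate embryos, so p-values measure only the spread between these libraries.

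Cenpj (CPAP) is needed to build centrioles, the barrels of microtubules that organise spindle poles and from which cilia grow. Cells without centrioles lose cilia too, and they can also trigger a mitotic surveillance pathway that stabilises p53 and raises its target genes. Ift88 is part of the intraflagellar transport machinery that assembles cilia, and its loss removes cilia while leaving centrioles. In the lung bud, epithelial Shh signals to the surrounding mesenchyme, where the primary cilium is required for the response.

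The libraries held 101.4 to 120.9 M reads in Cenpj mutant lung and 105.3 to 120.9 M in Ift88 mutant lung, as recovered from the deposited normalised counts, with 22784 to 26529 and 23548 to 24978 genes detected. Barely detected genes most often had 11 to 28 reads in Cenpj mutant and 14 to 27 reads in Ift88 mutant libraries rather than 1, so precision at low counts is poorer than the totals imply. A property of the libraries coincided with genotype. Ribosomal RNA took 7408 to 12863 reads per M in all 4 Cenpj mutant libraries and 332 to 638 in all 4 Ift88 mutant libraries. Of the controls, replicate 3 had 14428 and the other 3 had 297 to 1074. The kind of library and the genotype can therefore be separated within the lung only through control 3. Its value is given beside some genes only, and counts over passing genes with a mean of 200 or more stand under Other observations. The summed level of 6 sex-linked genes was 79738 to 138956 normalised counts in Cenpj mutant and 155675 to 171563 in Ift88 mutant libraries. In controls it was 26520 to 218496. Of these genes 0 passed the test used below, and whether the sexes were mixed alike in the mutants was not tested. Replicates correlated across genes at 0.92 to 0.94 in each lung group.

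Each targeted gene had its lower mean in the mutant labelled for it, but neither difference passed the test. Cenpj (chromosome 14, 56526761 to 56575425, GRCm38) had normalised read counts of 2133, 2958, 2636 and 2580.5 in Cenpj mutant libraries and 3663, 3101, 3063 and 3479 in Ift88 mutant libraries. All 4 Cenpj mutant values lay below all 4 Ift88 mutant values, as happened in either direction for 7.64% of genes tested (log2 fold change -0.37, SE 0.16, adjusted p = 0.33). Ift88 (chromosome 14, 57424062 to 57517936) stood at 2326, 2829.7, 3023 and 3092 in Cenpj mutant lung and 1839, 2442, 1883 and 1730.4 in Ift88 mutant lung. These groups overlapped in 1 value each (log2 fold change 0.52, SE 0.14, adjusted p = 0.0657). The authors' deposited table gives Ift88 an FDR of 0.00431 and Cenpj one of 0.283 for this comparison. Dissected lung holds epithelium, mesenchyme, vessels and blood. In such samples less RNA per cell of a type cannot be told apart from fewer cells of that type.

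Of 31361 genes tested, 563 (1.8%) passed an adjusted p of 0.05, 213 (0.679%) higher and 350 (1.12%) lower in the Cenpj mutant. These shares are the background for the list counts below, and no list was tested against them. By type, the genes that were higher comprised 170 protein-coding, 9 long noncoding and 16 small structural RNA genes and 18 of other types. Those that were lower comprised 296, 34, 0 and 20. Set against the controls that both mutants share, the Cenpj mutant was the nearer of the 2 mutants to control for 152 of the 213 genes that were higher in it. For the 350 lower genes the Ift88 mutant was nearer to control in 236. Most control libraries were poor in ribosomal RNA, as all Ift88 mutant libraries were. Genotype and library kind are therefore mixed in these counts and in those against control that follow. The Cenpj mutant differed from control at 161 genes (0.513%), 25 higher (0.0797%) and 136 lower (0.434%). With a term for library kind in the fit, this split reversed. It was 332 higher and 201 lower within the lung, and 71 higher and 12 lower over 24 libraries. The Ift88 mutant differed from control at 335 (1.07%), 137 higher (0.437%) and 198 lower (0.631%). By the authors' deposited table, 1137 genes passed an FDR of 0.05 for the same comparison, and 473 of the 563 were among them, all in the same direction. Of genes named below as passing, that table gives a higher FDR to Perp (0.13), Hhip (0.231), Lgr5 (0.0745), Ccno (0.317), Cldn18 (0.0859) and Hist1h1a (0.147). It holds no FDR for Nkx2-1, Sftpc, Cldn10, Aldh1a7, Aqp4, Actc1, Lars2 and Hist1h1e.

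A set of p53 targets was higher in the Cenpj mutant, led by Cdkn1a (chromosome 17, 29090979 to 29100722), which encodes the cyclin-dependent kinase inhibitor p21. Of 45 p53 targets tested, 7 rose in the Cenpj mutant relative to the Ift88 mutant, 0 fell, and 38 did not pass. Over all genes tested, 0.679% rose and 1.12% fell. The list's median log2 fold change was 0.25, against 0 for all genes tested. In 11 of the p53 targets all Cenpj mutant libraries lay above all Ift88 mutant libraries and in 1 below, against 3.45% and 4.18% of all genes. Cdkn1a counts were 4745, 2749.8, 1488 and 2106 in Cenpj mutant libraries and 555, 225, 352 and 347 in Ift88 mutant libraries. Every Cenpj mutant value lay far above every Ift88 mutant value (log2 fold change 2.84, SE 0.31, adjusted p = 0.000104). Control libraries had 718, 619, 967 and 462, all below every Cenpj mutant library, the third being the control rich in ribosomal RNA. Cdkn1a was higher than control in the Cenpj mutant, by 1.92 (adjusted p = 0.00682) on the log2 scale, and its value against control in the Ift88 mutant was -0.92 (adjusted p = 0.186).

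The p53-binding half-site was sought in RefSeq promoter windows of 300 bases around the transcript start (GRCm38.p6), because several p53 targets rose with Cdkn1a. The motif reads alike on both strands, so a single search covers both. It occurred in 8.36% of 32851 windows, and a pair separated by 0 to 13 bases in 0.0731%. Of the 7 targets that rose, 6 had a window, 3 of these held a half-site and 1 held such a pair. Of the 38 that did not pass, 29 had a window, 11 of these held a half-site and 0 a pair. The list is made of known p53 targets, so these counts describe it and say nothing of binding in these lungs. The 3 windows with a match are shown from 5′ to 3′, with the half-sites in capitals.
Cdkn1a chr17:29090729-29091028 (+ strand): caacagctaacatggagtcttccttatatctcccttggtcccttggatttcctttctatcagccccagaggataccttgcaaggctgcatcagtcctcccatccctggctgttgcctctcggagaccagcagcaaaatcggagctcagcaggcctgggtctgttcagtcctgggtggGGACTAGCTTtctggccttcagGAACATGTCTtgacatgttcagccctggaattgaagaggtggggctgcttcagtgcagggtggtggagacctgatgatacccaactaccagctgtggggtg
Ccng1 chr11:40755237-40755536 (- strand): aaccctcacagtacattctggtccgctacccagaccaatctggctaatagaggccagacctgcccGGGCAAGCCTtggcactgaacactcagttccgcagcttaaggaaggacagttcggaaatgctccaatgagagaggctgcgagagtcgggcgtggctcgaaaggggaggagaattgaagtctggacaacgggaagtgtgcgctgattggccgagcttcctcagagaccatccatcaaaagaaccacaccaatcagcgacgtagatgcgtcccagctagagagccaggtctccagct
Exoc4 chr6:33248878-33249177 (+ strand): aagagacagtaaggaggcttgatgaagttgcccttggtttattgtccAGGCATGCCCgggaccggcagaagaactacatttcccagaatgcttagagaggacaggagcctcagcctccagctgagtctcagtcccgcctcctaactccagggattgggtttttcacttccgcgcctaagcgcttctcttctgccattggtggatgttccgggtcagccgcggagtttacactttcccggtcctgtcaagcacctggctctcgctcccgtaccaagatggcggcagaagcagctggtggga
The Cdkn1a window holds 2 half-sites 12 bases apart, and those of Ccng1 and Exoc4 hold 1 each.

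Ccng1, which encodes cyclin G1, had counts of 10576, 12626, 6241 and 10438 in Cenpj mutant and 4565, 4829, 6014 and 4437 in Ift88 mutant lung. The groups did not overlap (log2 fold change 0.97, SE 0.17, adjusted p = 0.00559), while controls, at 4057, 4342, 3922 and 5769, lay with the Ift88 mutant. Eda2r, which encodes an ectodysplasin receptor, had 1009, 1722, 474 and 1258 in Cenpj mutant libraries, 232, 296, 313 and 327 in Ift88 mutant libraries and 266, 254, 286 and 177 in controls. Again every Cenpj mutant library stood above all 8 others (log2 fold change 1.80, SE 0.33, adjusted p = 0.00581). Ak1, an adenylate kinase, was measured at 4282, 2792, 2292 and 2824 in Cenpj mutant and 1570.2, 1464, 1644 and 1667 in Ift88 mutant lung (log2 fold change 0.90, SE 0.16, adjusted p = 0.00465). For Ccng1 and Eda2r, control 3 had 3922 and 286, below every Cenpj mutant library. For Ak1 it had 2111, the highest control, with 1730 to 1987 in the others, all below every Cenpj mutant library. The 3 other targets that rose were the desmosome gene Perp (1.56, adjusted p = 0.0305), the exocyst gene Exoc4 (0.40, adjusted p = 0.0496) and the heparan endosulfatase gene Sulf2 (0.66, adjusted p = 0.0363). Sulf2 lay nearer to control in the Cenpj than in the Ift88 mutant, with log2 values against control of 0.02 in the Cenpj mutant and -0.64 in the Ift88 mutant.

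Pmaip1, which encodes the cell-death protein Noxa, had 699, 323, 149 and 489 in Cenpj mutant and 72.1, 58.4, 122 and 72.0 in Ift88 mutant libraries. The groups did not overlap, but the difference did not pass (log2 fold change 2.19, SE 0.86, adjusted p = 0.265), and control 3 had 2.3 against 107, 66.0 and 79.8 in the other controls. The p53 ubiquitin ligase Mdm2 had a log2 fold change of 0.17 (adjusted p = 0.591), and Bax, a pore-forming death gene, one of 0.14 (adjusted p = 0.707). Corresponding values were 0.36 (adjusted p = 0.216) for Phlda3 and 0.82 (adjusted p = 0.0734) for Trp53inp1. Ddb2, a damage-recognition gene, had the opposite sign at -0.59 (adjusted p = 0.166). Trp53 itself had 0.16 (adjusted p = 0.626), with overlapping groups. Cdkn1a was the 1 of 7 cyclin-dependent kinase inhibitor genes to pass. Of 23 apoptosis genes and 11 regulators of p53 or of mitotic surveillance, 0 passed in either direction. With each lung library left out in turn, 4 to 8 targets passed, 4 without Cenpj mutant 1, 2 or 4 or Ift88 mutant 1 or 3. Cdkn1a, Ccng1, Eda2r and Ak1 passed in each of these fits.

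**Figure D1:**
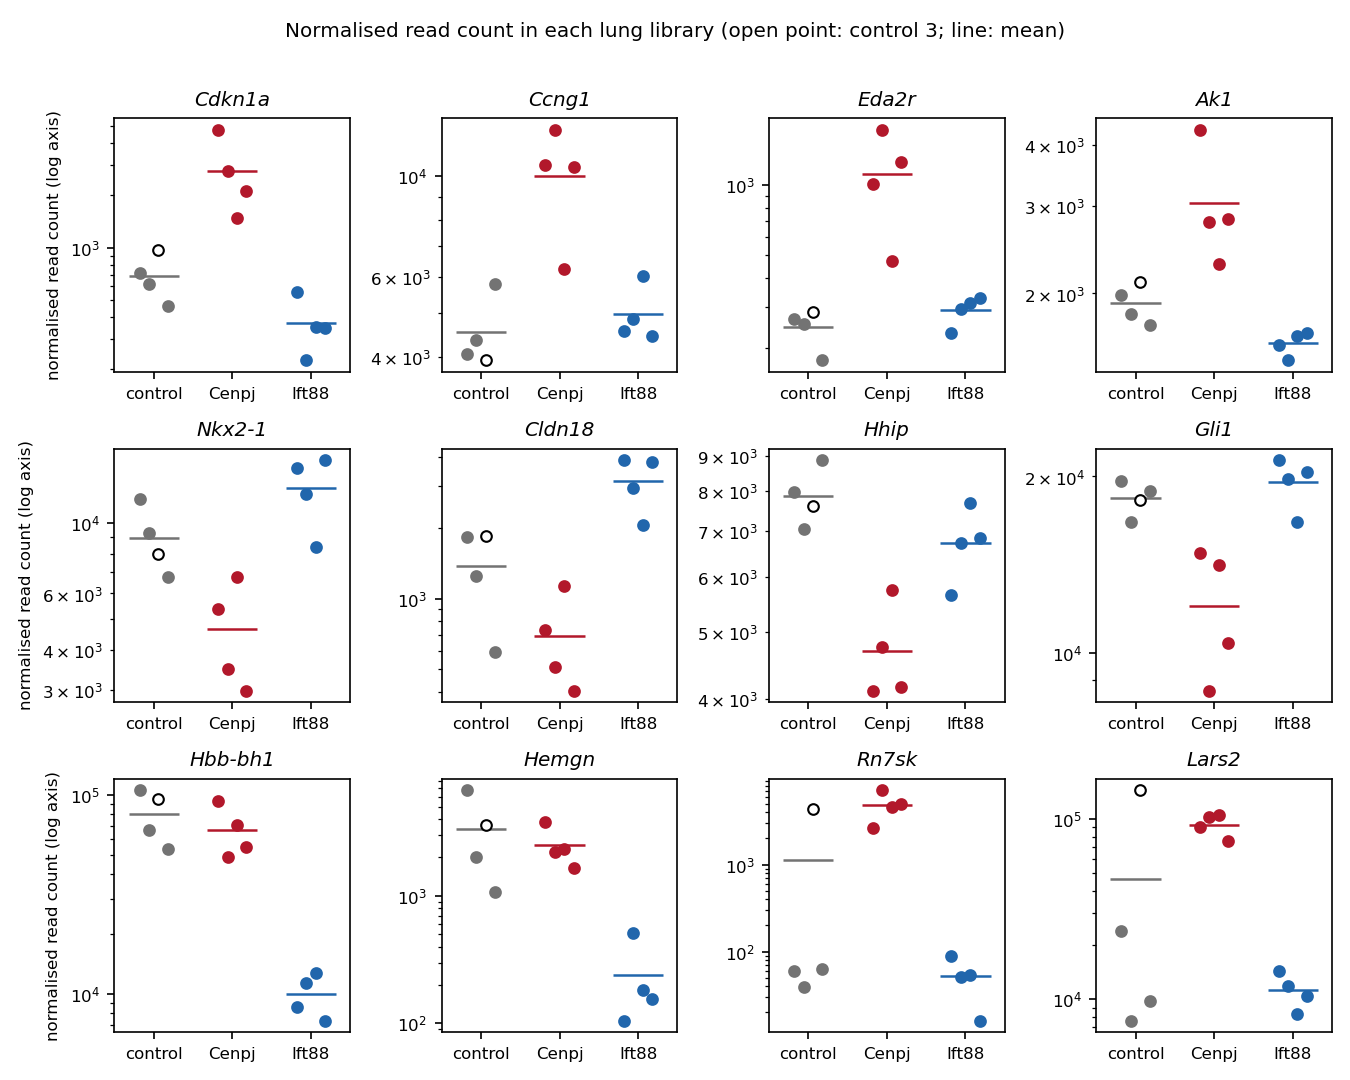
Normalised read counts on a log axis for 12 genes in the 4 control, 4 Cenpj mutant and 4 Ift88 mutant lung libraries, with 1 point per library, a line at each group mean, and control 3 as the open point. In Cdkn1a, Ccng1 and Eda2r all 4 Cenpj mutant points lie above the other 8, in Hbb-bh1 and Hemgn the 4 Ift88 mutant points lie below them, and in Rn7sk and Lars2 the open control point sits with the Cenpj mutants.

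Genes that build or run centrioles and cilia passed about as often as genes in general, of which 1.8% passed. Of 27 centriole and centrosome genes 0 passed in either direction, with a median log2 fold change of 0.02. Of 35 cilium and intraflagellar transport genes 1 passed, with a list median of 0.009. This was Tctn1, of the transition zone at the ciliary base, with 1549.9, 1659.8, 1360.3 and 1743 in Cenpj mutant and 2384, 2466, 2055 and 2528 in Ift88 mutant lung (log2 fold change -0.58, SE 0.13, adjusted p = 0.0225). In the multiciliated programme 1 of 18 passed, Ccno, a cyclin of centriole amplification, at 1.1, 50.7, 78.2 and 15.8 in the Cenpj mutant and 132, 272, 267 and 261 in the Ift88 mutant. It was lower in the Cenpj mutant with no overlap (log2 fold change -3.53, SE 0.90, adjusted p = 0.0487). Mitosis genes (0 of 25, median 0.08) and DNA replication genes (0 of 24, median 0.02) did not pass in either direction.

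Several lung epithelial genes were lower in the Cenpj mutant than in the Ift88 mutant. Of 19 lung epithelium genes 6 fell, 0 rose and 13 did not pass, where 1.12% of all genes tested fell and 0.679% rose. The list's median log2 fold change was -0.98. The summed level of the list was 49603 to 91093 normalised counts in Cenpj mutant, 81825 to 143154 in Ift88 mutant and 59938 to 121901 in control libraries. No marker of the list was at 0 in all 8 mutant libraries. This count would miss a marker absent from only the Cenpj or only the Ift88 mutant. It was also 0 for lists of other tissues, such as heart muscle and cartilage, so it cannot identify the organ. Nkx2-1 and Cldn18, described next, were detected in each of the 8 libraries. Nkx2-1, the transcription factor that specifies lung epithelium, had 5379.9, 3487, 6769 and 2977 in Cenpj mutant and 14839, 12260.5, 8396 and 15688 in Ift88 mutant lung. Each Cenpj mutant value lay below each Ift88 mutant value (log2 fold change -1.50, SE 0.23, adjusted p = 0.00155), while controls overlapped or lay between them, at 11821, 9283, 7963 and 6762. Cldn18, a tight-junction claudin of lung and stomach, had 736, 514, 1126 and 406 in the Cenpj mutant and 3866, 2954, 2057 and 3791 in the Ift88 mutant. This too was a difference without overlap (log2 fold change -2.25, SE 0.33, adjusted p = 0.00105), with 1839 in control 3 and 1833, 1242 and 595 in the other controls.

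Sftpc, which encodes surfactant protein C of the distal epithelium, was measured at 738, 709, 925 and 375 in Cenpj mutant and 3259, 3253, 3425 and 3007 in Ift88 mutant lung (log2 fold change -2.31, SE 0.50, adjusted p = 0.0215). Here the Ift88 mutant stood apart, since controls had 799, 565, 77.1 and 849.9 and the log2 value against control was 2.96 (adjusted p = 0.00743) for the Ift88 mutant and 0.65 (adjusted p = 0.685) for the Cenpj mutant. Foxa1 (-1.48, adjusted p = 0.0375), Irx2 (-1.29, adjusted p = 0.026) and Irx3 (-1.28, adjusted p = 0.0392), all transcription factors of the epithelium, completed the 6 that fell. Sox9, which marks the distal bud tips, had 0.25 (adjusted p = 0.775) and Etv5, a target of FGF signalling, -0.62 (adjusted p = 0.366). In the list of genes shared by epithelia, 2 of 18 fell, the splicing regulator Esrp2 (-1.29, adjusted p = 0.00523) and the adhesion gene Epcam (-0.87, adjusted p = 0.0496). The median of that list was -0.55, and 16 of its 18 members had a negative log2 fold change. With a library left out, 1 to 3 of them fell, 1 without Cenpj mutant 2 or 4 or Ift88 mutant 1, 2 or 4. Without 1 library, the count of lung epithelium genes that fell was 2 when Cenpj mutant 2 or 4 or Ift88 mutant 1, 2 or 4 was left out, and 6 or 7 for the other 7 libraries. Nkx2-1 and Cldn18 passed in every such fit, and Sftpc did not. The authors' deposited table gives Cldn18 an FDR of 0.0859 and holds none for Nkx2-1 and Sftpc.

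Other genes had larger falls in the Cenpj mutant, predicted genes left aside. Kif12, a kinesin gene, had 189, 205, 420.3 and 270.0 in Cenpj mutant and 2351, 2164, 1510.1 and 1941 in Ift88 mutant lung. The groups did not overlap (log2 fold change -2.93, SE 0.31, adjusted p = 6.91e-05), while controls held 1545, 1149, 456 and 1034. Control 3 gave the lowest of the control values. Aldh1a7, an aldehyde dehydrogenase gene, had 527, 280.5, 533 and 303 in the Cenpj mutant and 5759.5, 5229.5, 3577 and 5107 in the Ift88 mutant (log2 fold change -3.62, SE 0.46, adjusted p = 0.000375). Aqp4, a water channel gene, had 223, 138, 324 and 98.5 in the Cenpj mutant and 1072, 990.4, 784 and 944 in the Ift88 mutant (log2 fold change -2.40, SE 0.36, adjusted p = 0.00117). For both, the Ift88 mutant lay above control, with log2 values of 3.04 (adjusted p = 0.00332) and 2.24 (adjusted p = 0.00448) in the Ift88 mutant, and the Cenpj mutant did not pass against control. The cholecystokinin receptor gene Cckar (-2.49), the G-protein regulator Rgs11 (-2.48), the anoctamin Ano9 (-2.48), the basement-membrane collagen Col4a4 (-2.46), the Rbpj paralogue Rbpjl (-2.37) and Ttc6 (-2.37) fell by similar amounts, with adjusted p from 0.000375 to 0.00513. Control 3 was the lowest control for each of these except Rbpjl, with 153 for Ano9 against 353 to 536 in the others. Cldn10, a further claudin, had the largest fall of all under the naming rule (-4.32, adjusted p = 0.0366), from 789, 579, 568 and 555 in the Ift88 mutant to 0, 106, 186 and 44.0 in the Cenpj mutant.

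Gli1 and Hhip, which hedgehog signalling induces, fell in the Cenpj mutant, while most hedgehog genes did not pass. Gli1, a transcription factor induced by the pathway, had 14826, 8615, 14143 and 10401 in Cenpj mutant and 21329.7, 19819, 16718 and 20365 in Ift88 mutant lung. The groups did not overlap (log2 fold change -0.73, SE 0.14, adjusted p = 0.00897), and controls had 19653, 16741, 18248 and 18875. Hhip, which encodes a hedgehog-binding inhibitor induced by the pathway, fell by 0.52 on the log2 scale (adjusted p = 0.0334). Ptch1, a receptor and target, had 26111, 15878, 25678 and 16414 in the Cenpj mutant and 28838, 27003, 27577 and 32151 in the Ift88 mutant and did not pass (log2 fold change -0.50, SE 0.15, adjusted p = 0.11). Of 17 targets in the list 2 fell, Gli1 and Hhip, and 1 rose, Foxc2. The count that fell was 1 without Cenpj mutant 2 or 4 or any 1 of the Ift88 mutants, and 4 without Cenpj mutant 1. Gli1 did not pass without Ift88 mutant 1, and Hhip did not without Cenpj mutant 1, 2 or 4 or Ift88 mutant 2, 3 or 4. The list's median was -0.06. Foxc2, a forkhead factor of mesenchyme, had 679, 1474, 2071 and 1924 in the Cenpj mutant and 292, 316, 414 and 573 in the Ift88 mutant (log2 fold change 1.87, SE 0.29, adjusted p = 0.00174), and its log2 value against control was -2.40 (adjusted p = 0.000826) in the Ift88 mutant.

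Of the 3 hedgehog ligand genes 0 passed in either direction, with a median log2 fold change of -0.91. Shh counts were 899, 337, 1697 and 395 in Cenpj mutant and 1345, 1211, 941 and 1635 in Ift88 mutant libraries, with 1 Cenpj mutant value above all the others (log2 fold change -0.91, SE 0.37, adjusted p = 0.301). Ihh was low, at 0, 25.3, 23.3 and 10.6 in the Cenpj mutant and 151, 69.4, 47.3 and 63.0 in the Ift88 mutant (log2 fold change -3.03, SE 1.42, adjusted p = 0.401). Shh is made by the epithelium, whose markers are given above with their summed level. Whether the epithelial share had a part in the lower Gli1 and Hhip was not tested.

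A few genes of other signalling pathways passed, where 0.679% of all genes tested were higher and 1.12% lower. Fgfr3, a receptor for fibroblast growth factors, had 994, 1516, 1424 and 1460.0 in Cenpj mutant and 4242, 4474, 2566 and 4783 in Ift88 mutant lung (log2 fold change -1.55, SE 0.21, adjusted p = 0.000537). Control 3 had 1548 and the other controls 2269 to 3096. Fgfr4, of the same family, had 766, 342, 670.0 and 199 in the Cenpj mutant and 1768, 1427, 850.1 and 1898 in the Ift88 mutant (log2 fold change -1.71, SE 0.34, adjusted p = 0.0134). These were 2 of 10 FGF ligand and receptor genes, none of which rose. Rnf43, a ubiquitin ligase that removes Wnt receptors, had 1394, 1537, 1338 and 1259.5 in the Cenpj mutant and 3258, 2587, 2518 and 3468 in the Ift88 mutant. Its groups did not overlap (log2 fold change -1.09, SE 0.14, adjusted p = 0.00043). Lgr5, an R-spondin receptor gene, was lower as well (-1.44, adjusted p = 0.0237), which made 2 of 16 Wnt targets. Among Wnt ligands and regulators, the secreted inhibitor Sfrp1 rose (0.57, adjusted p = 0.0134), 1 of 19. Chrd, which encodes the BMP antagonist chordin, fell (-1.05, adjusted p = 0.0288), 1 of 18 BMP and TGF-beta genes. Control 3 had 567.5 for Chrd and 226 for Lgr5, against 1023 to 1599 and 345 to 430 in the other controls. For Fgfr4 it lay within the range of the other controls. Of 16 Notch genes and 16 ERK targets and feedback genes 0 passed in either direction.

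Several red-cell genes were higher in the Cenpj mutant, and in those that rose the Ift88 mutant was farther from control than the Cenpj mutant was. Hbb-bh1, an embryonic beta-like globin, had 92874, 48648, 70474 and 54432 in Cenpj mutant and 8539.6, 11390.2, 12711 and 7311 in Ift88 mutant lung. This had the smallest adjusted p of all genes named here (log2 fold change 2.73, SE 0.22, adjusted p = 2.96e-06). Controls had 105197, 66158, 95682 and 53371, and the Ift88 mutant differed from them by -2.99 (adjusted p = 6.09e-07) on the log2 scale and the Cenpj mutant by -0.26 (adjusted p = 0.704). Hba-x, the embryonic zeta-type globin, had 766860.0, 291820.0, 295244 and 244922 in the Cenpj mutant and 97715, 117766, 100601 and 72854 in the Ift88 mutant (log2 fold change 1.90, SE 0.32, adjusted p = 0.00361). Of 5 embryonic globins these 2 rose, and 2 remained past the threshold whichever lung library was left out. Hbb-y, the embryonic epsilon-type globin, had 635487, 211440.0, 190255 and 167561 in the Cenpj mutant and 121102, 173021, 170608 and 107220.0 in the Ift88 mutant and did not pass (log2 fold change 0.87, SE 0.39, adjusted p = 0.366).

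The adult globins Hba-a1, Hba-a2, Hbb-bt and Hbb-bs did not pass, with log2 fold changes of 0.58, 0.33, 0.35 and -0.99. Cenpj mutant 1 held the highest value of its group for each of them, and without it the values of Hba-a2 and Hbb-bt were -0.25 and -0.16. Hba-a1 and Hba-a2 are near-identical copies, and Hbb-bt and Hbb-bs are closely alike, so how reads were split between them is uncertain. Of 15 erythroid genes 5 rose and 0 fell, against 0.679% and 1.12% of all genes tested, with a list median of 1.30. With a library left out 4 to 9 rose, 9 without control 1, and edgeR and the fit of only these groups also gave 9. Hemgn, a nuclear factor of blood progenitors, had 3815, 2188, 2337 and 1659 in Cenpj mutant and 105, 508, 184 and 155 in Ift88 mutant lung (log2 fold change 3.59, SE 0.46, adjusted p = 0.000375). Controls, at 6718, 2007, 3625 and 1076, lay above all Ift88 mutant values. The erythroid transcription factor gene Gata1 (2.33, adjusted p = 0.0288) and the Rhesus blood-group gene Rhd (1.75, adjusted p = 0.00942) also rose.

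Of 7 megakaryocyte and platelet genes 3 rose and 0 fell, but 1 rose when Cenpj mutant 1, 2 or 4 or any Ift88 mutant library was left out. Ppbp, which encodes a platelet chemokine, had 3291, 1753, 1039.5 and 1861 in Cenpj mutant and 319, 517, 543 and 463 in Ift88 mutant lung (log2 fold change 2.02, SE 0.31, adjusted p = 0.00148). The integrin gene Itgb3 (1.28, adjusted p = 0.0393) and the platelet glycoprotein gene Gp9 (1.77, adjusted p = 0.04) were higher too. Macrophage genes (0 of 13) did not pass, and of 13 blood endothelial genes 1 fell, the endothelial secreted factor gene Egfl7 (-0.44, adjusted p = 0.0284). The summed level of the erythroid list was 36628 to 106340.0 in Cenpj mutant, 24421 to 33813 in Ift88 mutant and 38748 to 130501 in control libraries. Lists for other tissues near the lung, of 13 liver, 7 skeletal muscle, 7 mesothelium, 6 lymphatic, 10 intestinal epithelium and 6 cartilage genes, had 0 members that passed in either direction. Their median log2 fold changes were, in that order, 1.04, 1.30, 0.24, -0.03, 0.44 and 0.06. All 7 skeletal muscle genes had a positive value. Of 11 stomach, oesophagus and pancreas genes, Nkx6-1 rose and Rbpjl fell. Whether the amount of blood left in the dissected lungs had a part in these values was not tested.

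**Figure D2:**
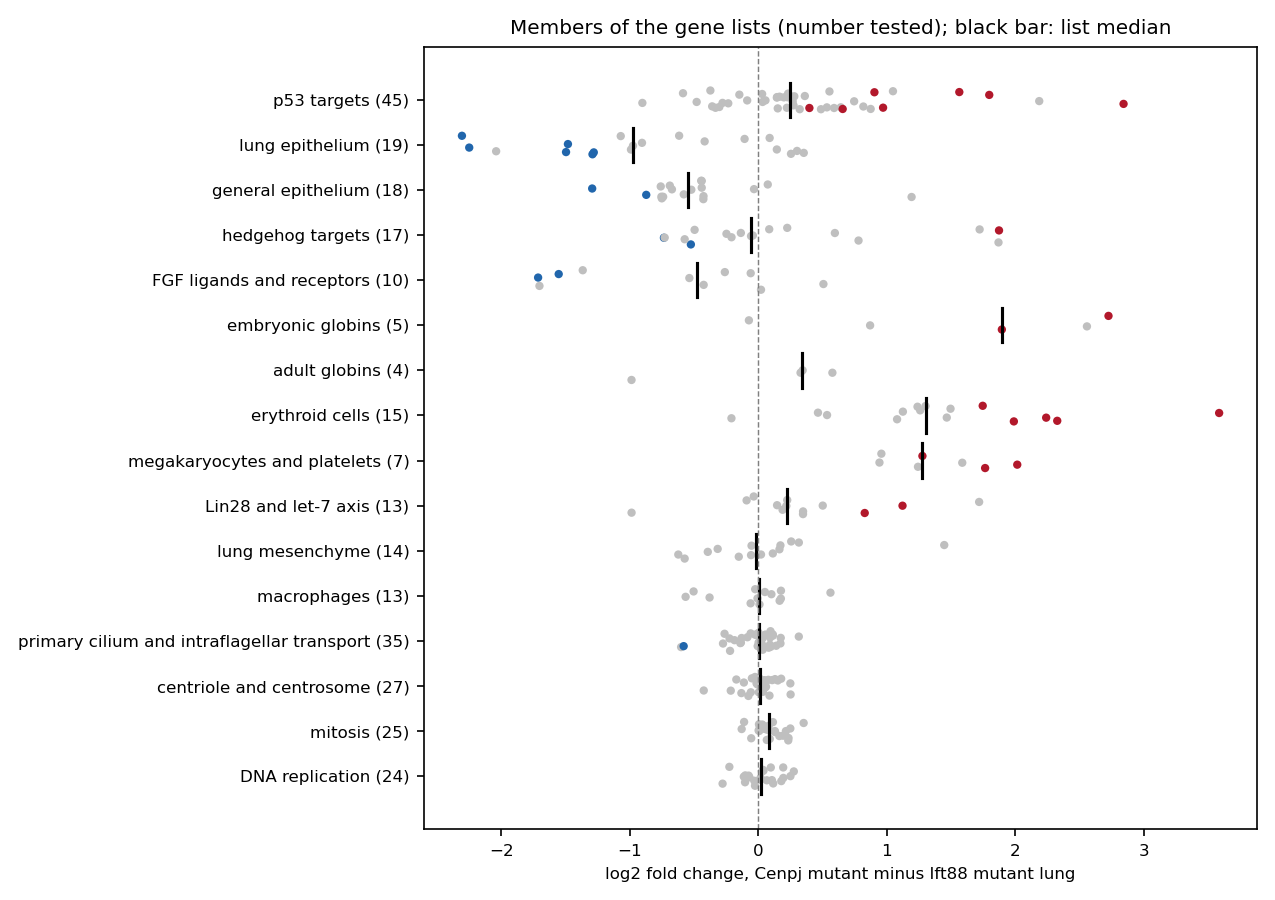
Log2 fold changes, Cenpj mutant minus Ift88 mutant lung, of the members of 16 gene lists, with 1 point per gene, red for genes that passed higher in the Cenpj mutant, blue for those that passed lower, grey for the rest, and a black bar at the median. Erythroid genes centre at 1.30 and lung epithelium genes at -0.98, while centriole, mitosis and DNA replication genes lie close to 0.

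Some genes of the Lin28 pathway were higher in the Cenpj mutant. Lin28b, which blocks maturation of let-7 microRNAs, had 1408, 1425, 2661 and 2581 in Cenpj mutant and 958, 767, 951 and 875 in Ift88 mutant lung. The groups did not overlap (log2 fold change 1.12, SE 0.24, adjusted p = 0.0187), but the difference did not pass without any 1 of Cenpj mutants 3 and 4 and Ift88 mutants 1, 2 and 4. Controls had 2034, 2686, 2714 and 1254. Hmga2, a chromatin protein gene and let-7 target, had 78247, 78969, 96457 and 80746 in the Cenpj mutant and 51866, 40572, 42198 and 54479 in the Ift88 mutant (log2 fold change 0.83, SE 0.17, adjusted p = 0.0139), which did not pass without Cenpj mutant 3 or Ift88 mutant 2. These were the 2 of 13 genes of the Lin28 and let-7 axis that rose, and in both the Cenpj mutant value against control did not pass while the Ift88 mutant lay below control by 1.23 and 1.15 on the log2 scale. Lin28a had 1.72 (adjusted p = 0.121), Igf2bp1 0.35 (adjusted p = 0.305) and Igf2bp3 0.35 (adjusted p = 0.139), none of which passed. Hoxb1 rose, 1 of 26 Hox genes, where 0.679% of all genes tested rose. It had 1016, 1159, 1961 and 1553 in the Cenpj mutant and 396, 408, 577 and 337 in the Ift88 mutant (log2 fold change 1.71, SE 0.33, adjusted p = 0.00911).

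Of 16 retinoic acid genes 2 rose and 0 fell. Stra6, a receptor for retinol uptake, had 4319, 6472, 9168 and 7984 in Cenpj mutant and 3657, 2845, 2895 and 4198 in Ift88 mutant lung (log2 fold change 1.00, SE 0.21, adjusted p = 0.0171). Crabp2, which carries retinoic acid to its nuclear receptor, was also higher (0.73, adjusted p = 0.0161). Nkx6-1, a transcription factor of the foregut and pancreas, rose by 1.23 (adjusted p = 0.0427). Further genes were among the largest rises. Foxd3, a neural crest factor, had 214, 934, 1138 and 519.8 in the Cenpj mutant and 86.9, 58.4, 137 and 149 in the Ift88 mutant (log2 fold change 2.53, SE 0.48, adjusted p = 0.00856). Slc30a10, a manganese exporter gene, had 992, 504, 352 and 272 in the Cenpj mutant and 116, 72.7, 49.2 and 132 in the Ift88 mutant (log2 fold change 2.43, SE 0.47, adjusted p = 0.0109). The LIM-homeobox gene Lmx1a (2.97, adjusted p = 0.0434) and the adrenergic receptor gene Adra2b (2.48, adjusted p = 0.0319) rose as well. Among the Cenpj mutant libraries each had its highest value in Cenpj mutant 1. In all 4 the fitted Cenpj mutant level was nearer to control than the Ift88 mutant level. Of 12 neural crest and neuron genes in the list 0 passed in either direction, Sox10 among them (1.77, adjusted p = 0.134).

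Among matrix and muscle genes both directions occurred. Of 22 collagens, Col9a1 rose, with 1549.9, 2918, 2124 and 2537 in Cenpj mutant and 907, 769, 793 and 1300.5 in Ift88 mutant lung (log2 fold change 1.27, SE 0.19, adjusted p = 0.00148). Col7a1 (-0.76, adjusted p = 0.0319) and Col13a1 (-1.51, adjusted p = 0.0334) fell. The cardiac muscle genes Myh6 and Actc1, 2 of 14 in their list, fell, Actc1 from 1977, 2328, 2417 and 1855 in Ift88 mutant to 464, 712, 179 and 552 in Cenpj mutant libraries (log2 fold change -2.32, SE 0.37, adjusted p = 0.00201). Myh6 had 71.8, 536, 98.5 and 279 in the Cenpj mutant and 744, 573, 2237 and 987 in the Ift88 mutant (log2 fold change -2.44, SE 0.51, adjusted p = 0.0156), and against control the Ift88 mutant values were 1.78 (adjusted p = 0.0217) and 1.81 (adjusted p = 0.0939) on the log2 scale. The summed heart muscle list was 5574 to 9698 in Cenpj mutant, 8429.9 to 16728 in Ift88 mutant and 6451 to 9976 in control libraries, and the part of heart tissue in these values was not tested. Without Cenpj mutant 3 or Ift88 mutant 3, 1 of the list fell. Smooth muscle genes did not pass (0 of 10, median -0.59), Acta2 being at 19863, 26628, 10991 and 21545 in the Cenpj mutant and 38440.4, 39868, 31619 and 38578 in the Ift88 mutant (log2 fold change -0.97, SE 0.35, adjusted p = 0.214). Lung mesenchyme genes did not pass either (0 of 14, median -0.02), and Vim, an intermediate filament gene of mesenchyme, had 0.32 (adjusted p = 0.152).

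The imprinted noncoding RNA genes Meg3 and Mirg, which lie in the same imprinted cluster, fell, 2 of 23 imprinted genes. Meg3 had 40559.7, 47357, 25958 and 46829 in Cenpj mutant and 85141, 92740.1, 71008 and 78132 in Ift88 mutant lung (log2 fold change -1.06, SE 0.19, adjusted p = 0.00523). Its controls had 38302 in replicate 3 and 64607, 61118 and 73254 in the others. Vegfa, the endothelial growth factor gene, was the 1 of 24 glycolysis and hypoxia genes that fell (-0.56, adjusted p = 0.0227). Ribosomal protein genes (0 of 30), oxidative phosphorylation genes (0 of 30) and the mitochondrially encoded genes listed (0 of 13) did not pass. Their medians were 0.02, 0.06 and 0.007. The mitochondrial ribosomal RNA genes mt-Rnr1 (1.41, adjusted p = 0.0137) and mt-Rnr2 (1.57, adjusted p = 0.0137) are not in that list, and both rose.

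The largest rises among the genes named were in structural RNAs, and these followed the kind of library. Rn7sk, the structural 7SK RNA, had 2592, 7113, 4536 and 4975 in Cenpj mutant and 88.9, 50.7, 54.0 and 16 in Ift88 mutant lung (log2 fold change 6.63, SE 0.98, adjusted p = 0.00115). Control 3, rich in ribosomal RNA, had 4297, and the other controls 59.8, 39.0 and 63.0. Lars2, a mitochondrial leucyl-tRNA synthetase gene, had 90736, 102486, 104823 and 75117 in the Cenpj mutant and 14372, 11830.0, 8294 and 10492 in the Ift88 mutant (log2 fold change 3.07, SE 0.55, adjusted p = 0.00576), with 144380.0 in control 3 and 23842, 7590.0 and 9726 in the others. In both genes control 3 lay within or above the Cenpj mutant range and the other controls far below it. Rn7s1 (7.57) and Rn7s2 (6.54), near-identical copies of the signal recognition particle RNA, and the linker histone genes Hist1h1e (3.29) and Hist1h1a (3.37) rose too, with adjusted p from 0.00117 to 0.0368. Control 3 was at 521, 159, 349.9 and 189.9 for these genes, above each of the other 3 controls. Of 24 histone genes in the list 2 rose, and 0 did without Cenpj mutant 2, 3 or 4 or Ift88 mutant 1 or 2.

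With a term for library kind in the fit of 24 libraries, 36 of 32098 genes passed (0.112%), 25 higher and 11 lower in the Cenpj mutant. That fit separated kind from genotype only through control lung 3 and control intestine 2. It took 1 effect of kind for both organs, although ribosomal RNA took 14428 reads per M in control lung 3 and 2742 in control intestine 2. With the term within the lung 285 of 31361 passed (0.909%), 116 higher and 169 lower. Of the 563 genes, 547 kept their direction over 24 libraries (208 of 213 and 339 of 350) and 9 passed (6 and 3). The term widened the errors, from a median SE of 0.204 to 0.350 over these genes, and lowered the median size of the log2 fold change from 1.04 to 0.668. Cdkn1a was one of the 9, at 2.52 (SE 0.51, adjusted p = 0.0376), as were Kif12 (-1.71, adjusted p = 0.038), Col9a1 (1.52, adjusted p = 0.00824), Gp9 (3.56, adjusted p = 0.0122) and Slc30a10 (3.47, adjusted p = 0.0289). With the term within the lung, Cdkn1a was at 2.13 and did not pass (adjusted p = 0.316). Among p53 targets 3 passed in the fit of 24 libraries, Cdkn1a, Pmaip1 (5.46) and Trim7 (6.98), the last named after its value was seen. In control 3, Pmaip1 had 2.3 against 66 to 107 in the other controls, and Gp9 95.5 against 308 to 418. The weight of control 3 in these values was not tested. Of the lung epithelium, hedgehog target and erythroid lists and the embryonic globins, 0 members passed. Their medians in that fit were -0.75, 0.14, 1.89 and 2.03, so the hedgehog list changed sign and the others did not. Rn7sk (-1.16) and Hist1h1e (-0.49) reversed.

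**Figure D3:**
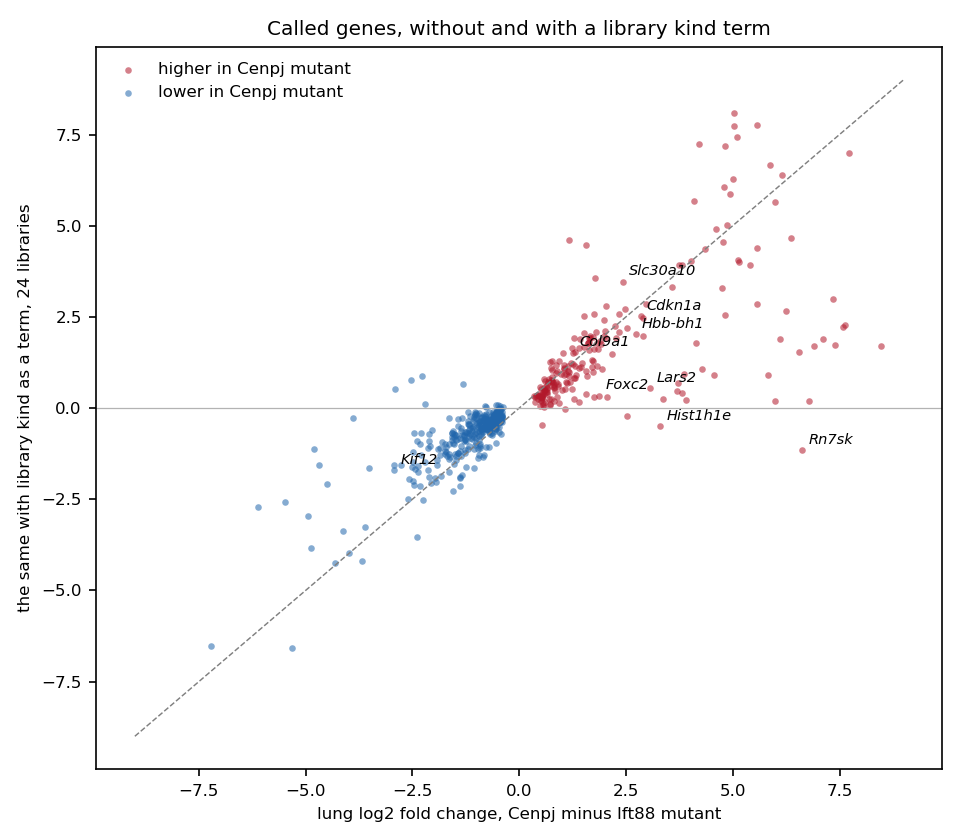
Log2 fold change, Cenpj minus Ift88 mutant lung, of the 563 genes that passed, without (horizontal axis) and with (vertical axis) a term for library kind over 24 libraries, with 1 point per gene and a dashed line of equality. Cdkn1a goes from 2.84 to 2.52 and Col9a1 from 1.27 to 1.52, while Rn7sk goes from 6.63 to -1.16 and Lars2 from 3.07 to 0.54.

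The same contrast of mutants in the small intestine, which shares no library with the lung, gave the same sign for 163 of the 213 higher and 312 of the 350 lower genes. It passed in the same direction for 45 and 140 of them, where 1133 of 32098 genes tested (3.53%) passed, 517 higher (1.61%) and 616 lower (1.92%). Library kind coincides with genotype there too, so these counts cannot tell the 2 apart. The labels used here do not say whether lung and intestine libraries came from the same embryos. The fit of 24 libraries treated them as unpaired, so the intestine may not be an independent repeat. A test of the difference between organs passed for 13 genes of 32098 (0.0405%), 8 with the larger value in lung (0.0249%) and 5 with the smaller (0.0156%). With 1 of the 16 mutant libraries left out this count was 3 to 72, 72 without Cenpj mutant lung 1 and 3 without Cenpj mutant lung 4 or Ift88 mutant lung 3. Cdkn1a was one of them. In intestine it had 1559.5, 1621, 1358 and 1704 in Cenpj mutant and 662, 1735, 1143 and 2159 in Ift88 mutant libraries. There the groups overlapped, with a log2 fold change of 0.26, and the lung exceeded it by 2.58 (SE 0.47, adjusted p = 0.034).

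The other 4 named by the rule for this test changed sign between the organs. Ces1d, a carboxylesterase gene, was -1.65 in lung and 1.69 in intestine (difference -3.34, adjusted p = 0.034). In lung, control 3 had 380 and the other controls 810 to 1341, with 399 to 577 in Cenpj mutant libraries. Frem1, an extracellular matrix gene, was -0.90 and 0.54 (difference -1.44, adjusted p = 0.0161). Both were lower in Cenpj mutant than in Ift88 mutant lung and had positive values in intestine. Khdrbs3, an RNA-binding protein gene, was 0.59 in lung and -0.55 in intestine, and the G-protein subunit gene Gnao1 0.37 and -1.52, both with an adjusted p of 0.0161 for the difference. In the lung alone Gnao1 did not pass (adjusted p = 0.409).

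**Figure D4:**
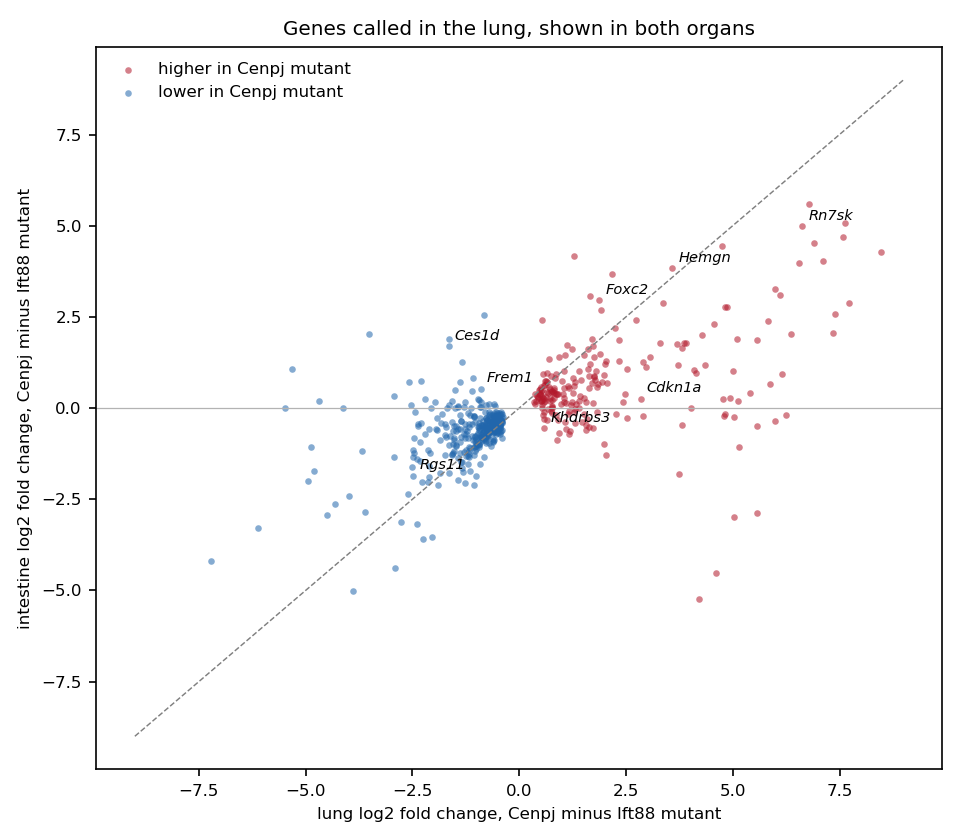
Log2 fold change, Cenpj minus Ift88 mutant, of the 563 genes that passed in the lung, in lung (horizontal axis) and in intestine (vertical axis), with 1 point per gene and a dashed line of equality. Hemgn is at 3.59 in lung and 3.84 in intestine, whereas Cdkn1a is at 2.84 in lung and 0.26 in intestine and Ces1d changes sign.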

How the data were processed

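The authors deposited 1 table of 55536 genes with a column of normalised counts for each of the 24 libraries. Per the file headers and the values, this deposited signal holds reads per gene after division by a size factor of the library, to 1 decimal. Per the file headers, the deposited fold (a ratio), p-value and FDR columns come from the authors' own test. Tools listed in the submitters' processing notes were STAR (2.5.2b) and DESeq2 (1.16.1), with GRCm38, also called mm10, as the build. How reads were counted, on which strand and with which annotation is not given in the sources used here. Genes that overlap, lie antisense to each other or have close copies are therefore uncertain. Per the labels' protocols, tissue was lysed in Trizol and total RNA purified with an RNeasy Micro Kit.

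Whole reads were recovered from the steps between low values (tolerance 0.051; 100% of values up to 500 were whole). In 4 libraries the step was so close to 1 that rounding could not be separated from it. The main test was limma-trend (limma 3.58.1, R 4.3.3) on log2(normalised count + 1), for genes with a mean of 1 or more over the 12 lung libraries, with group as the only term and Benjamini-Hochberg adjusted p under 0.05. Fold changes are on this scale, which understates the change of low genes. Lung minus intestine was tested as an interaction over 24 libraries. The design had named edgeR in case raw counts were given, and edgeR 4.0.16 and DESeq2 1.42.0 were run on recovered reads as alternatives. Libraries over 2000 ribosomal RNA reads per M were called rich. The script was tested on simulated data.

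Genes named are Cenpj and Ift88, the 12 largest rises and 12 largest falls past the threshold with a mean of 200 or more and 4 libraries against 4 without overlap, leaving out predicted, clone-named, snoRNA and pseudogene names, up to 3 passing members per list by smallest p, all members of 7 lists such as p53 targets and globins, up to 2 members with the highest mean of lists with fewer than 2 passing, and for the organ difference the 5 smallest p with a mean of 200 or more. The rule takes 219 genes, of which the text names 93, 68 of them past the threshold. Some genes the rule takes are not reported here. Foxa1, Irx2, Irx3, Rhd, Sox9, Trim7, mt-Rnr1 and mt-Rnr2 were added to complete counts. The comparison, its lists (52, with 811 of 827 symbols in the table) and the library kinds were chosen with earlier results of these data known.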

Additional observations from a re-analysis of the deposited data

Results flagged for a closer look

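In each lung group of 4, the highest or lowest library of every named gene was compared with the other 3 by Dixon's ratio of gap to range. Of 279 groups, 29 had a library beyond it, where chance flags about 1 in 20. Cenpj mutant 1 was high for 9 blood and other genes, with the range of the other 3 Cenpj mutant libraries in parentheses, in normalised counts, Hba-x 766859.6 (244922 to 295244), Hbb-y 635487 (167561 to 211440.0), Hba-a1 156865 (37671 to 50859), Hba-a2 57457 (9508 to 13869), Hbb-bt 30758 (6637 to 8468), Hbb-bs 31374 (2978 to 3171), Itgb3 9164 (2275 to 3268), Lmx1a 1283 (270.0 to 388) and Adra2b 1281 (202 to 298). Control 3, the control rich in ribosomal RNA, stood apart for Ihh 207 (0 to 30.5), Rn7sk 4297 (39.0 to 63.0), Rn7s1 521 (15.0 to 36.4), Rn7s2 159 (0 to 3.0), Lars2 144379.6 (7590.0 to 23842) and Hist1h1a 189.9 (18.6 to 29.5). The remaining flags were Ccno 132 in Ift88 mutant lung 1 (261 to 272), Cldn10 789 in Ift88 mutant lung 1 (555 to 579), Cckar 1491 in Cenpj mutant lung 3 (325 to 520.2), Cckar 2377 in control lung 1 (999 to 1193), Col4a4 2224 in control lung 4 (365 to 546), Aqp4 331 in control lung 4 (154 to 179.6), Myh6 404 in control lung 2 (236 to 261), Actc1 1381 in control lung 4 (383 to 538), Hbb-bs 17424 in Ift88 mutant lung 2 (9024 to 10015), Hmga2 96457 in Cenpj mutant lung 3 (78247 to 80746), Hoxb1 3802 in control lung 2 (956 to 1306), Nkx6-1 3466 in Ift88 mutant lung 3 (1939 to 2037), Slc30a10 1933 in control lung 1 (446 to 573) and Rn7s2 1.0 in Ift88 mutant lung 3 (0 to 0).

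A test of the difference between organs passed for 5 named genes. Cdkn1a differed by 2.58, from 2.84 in lung to 0.26 in intestine, with an adjusted p of 0.034. Frem1 differed by -1.44, from -0.90 in lung to 0.54 in intestine, with an adjusted p of 0.0161. Gnao1 differed by 1.89, from 0.37 in lung to -1.52 in intestine, with an adjusted p of 0.0161. Khdrbs3 differed by 1.14, from 0.59 in lung to -0.55 in intestine, with an adjusted p of 0.0161. Ces1d differed by -3.34, from -1.65 in lung to 1.69 in intestine, with an adjusted p of 0.034. Cdkn1a was higher in all 4 Cenpj mutant lungs than in any Ift88 mutant lung.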

How the results depend on the processing

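The count of 563 genes between the mutants ranged from 390 to 835 over TMM scaling, rescaling, 2 other pseudocounts, 2 other filters, edgeR with TMM, the replicate block and the fit of only these 2 groups, all within 1.5 times of it. It was 1103 with DESeq2, 285 with a library kind term within the lung and 36 with that term over 24 libraries. Leaving out 1 lung library gave 195 to 681 genes, with the fewest without Ift88 mutant 1 (195), Ift88 mutant 2 (228), Ift88 mutant 4 (279), Cenpj mutant 4 (297), Cenpj mutant 3 (324) and Cenpj mutant 2 (331). For the Cenpj mutant against control (161), the count was 86 with no filter, 69 with only those groups, 533 and 83 with the kind term within the lung and over 24 libraries, 754 with DESeq2, and 36 (without control 2) to 407 (without control 4) with a library left out. For the Ift88 mutant against control (335), it was 150 with no filter, 506 with the replicate block, 16 with the kind term within the lung, 972 with DESeq2, and 52 (without Ift88 mutant 1) to 995 (without control 4) with a library left out. For lung minus intestine (13), it was 21 with the replicate block and 3 to 72 with a mutant library left out.

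Of 68 named genes that passed, 35 passed in every fit that left out a library and 50 in every other alternative without the kind term, in which DESeq2 values of NA were not counted as lost. Those that did not pass in at least 1 fit without a library were Perp, Exoc4, Sulf2, Gli1, Hhip, Lgr5, Sfrp1, Fgfr4, Chrd, Stra6, Crabp2, Tctn1, Ccno, Sftpc, Epcam, Cldn10, Myh6, Gata1, Itgb3, Gp9, Lin28b, Hmga2, Mirg, Col7a1, Col13a1, Vegfa, Egfl7, Nkx6-1, Lmx1a, Adra2b, Rn7s2, Hist1h1e and Hist1h1a. With the kind term over 24 libraries 5 passed and 2 reversed, Rn7sk (-1.16) and Hist1h1e (-0.49). With the term within the lung 1 passed and 4 reversed, Chrd (0.0683), Sftpc (0.91), Rn7s2 (-0.11) and Lars2 (-0.51). Genes that had not passed also changed sign with that term within the lung, Trp53 (-0.0941), Acta2 (0.85), Hbb-bs (1.07), Lin28a (-0.49) and Igf2bp1 (-0.0437), and over 24 libraries, Trp53 (-0.0525), Acta2 (0.32) and Vim (-0.023). With a library left out, Hba-a2 ranged from -0.25 to 0.615 and Hbb-bt from -0.16 to 0.583, both negative only without Cenpj mutant 1. The cause was not tested; the kind term leaves the comparison resting on the rich and poor controls.

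The replicate block raised the count between mutants to 673. Deviations of same-numbered Cenpj and Ift88 mutant libraries correlated at 0.016, 0.0015, 0.0008 and 0.0098, so the numbers were not taken to pair the samples. Low genes most often had 11 to 38 reads where barely detected, so counting error there exceeds that of the read number.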

Other observations

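Among genes with a mean of 200 or more, the median GC content was 51.1% for the 332 that were lower in the Cenpj mutant, 47.3% for the 172 that were higher and 46.1% for the 13860 that did not pass. Control 3, which shares the Cenpj mutants' library kind, lay below the mean of the other controls for 249 of the 332 and above it for 122 of the 172. Its median difference from them was -0.19 and 0.24 on the log2 scale, against 0.014 for genes that did not pass.

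Cenpj and Ift88 lie 0.849 Mb apart on chromosome 14, so the mutants differ in which of these neighbouring genes was modified. Within 5 Mb of the pair, 14 of 222 other genes tested passed (6.31%), 11 lower and 3 higher in the Cenpj mutant, against 1.8% of all genes. The share was 2.71% over chromosome 14 and 3.81% over chromosome 17, which holds neither targeted gene. Among genes with a mean of 200 or more, 172 of 14364 were higher and 332 lower. The 14 genes near the pair included Haus4, an augmin subunit gene of the spindle (0.65, adjusted p = 0.00523), Psmb5, a proteasome subunit gene (0.48, adjusted p = 0.026), and Carmil3 (-0.88, adjusted p = 0.00116), as well as Myh6. In intestine the corresponding log2 fold changes were 0.44 for Haus4, 0.52 for Psmb5 and -0.80 for Carmil3. These genes were chosen after their values were seen.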
